A study of Mus musculus with 4 samples.

Results

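Oligodendrocytes are the glial cells that wrap axons of the central nervous system in myelin, a compacted membrane rich in galactolipids and in a small set of dedicated proteins. They arise from dividing precursors that carry the growth factor receptor PDGFRα and the proteoglycan NG2, pass through a short-lived newly formed stage, and then switch on the proteins and lipid enzymes of the sheath under the control of Sox10, Olig2 and Myrf. The lineage was described here through 34 genes listed for its precursor, newly formed and myelinating stages. Each was matched by symbol to a single mouse Ensembl identifier among the 55414 gene rows of the count table, and all 34 passed the filter on low counts that left 21592 genes for testing.

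The study compared the transcriptomes of 2 Stra8-KO libraries and 2 wild-type (WT) libraries by bulk sequencing of poly(A) RNA from mice. Stra8 is a retinoic acid target gene that germ cells need to enter meiosis. Per the series design, animals of both genotypes carried pStra8-GFP, a reporter in which the promoter of Stra8 drives green fluorescent protein, and the fluorescent cells were sorted from hippocampi, while the sample labels name only brain as the tissue. How many animals, and of which age and sex, went into a library is stated in neither source, so p-values measure the spread between these libraries, which may be technical. Total counts were 82172740 and 71097417 reads in KO libraries 1 and 2, and 80310856 and 81905583 reads in WT libraries 1 and 2. Stra8 itself had 7 and 4 reads in the KO libraries and 5 and 1 reads in the WT libraries, too few to check the genotype labels. Levels are given as CPM, a gene's reads relative to a fixed total to which the libraries were scaled.

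Genes of the lineage made up a visible part of every library. The 34 genes together took 1.06% and 1.06% of all reads in the KO libraries, against 1.02% and 1.03% in the WT libraries. Mbp, which encodes the basic protein that holds the inner faces of the myelin membrane together, took 47.2% to 47.5% of those reads in all 4 libraries. Mature oligodendrocyte transcripts were thus present at high level in libraries described as sorted for a reporter of Stra8. Markers of other brain cells were present as well, among them the neuronal gene Snap25 at 1979 and 1977 CPM in KO and 1953 and 1962 CPM in WT, and the astrocyte glutamate transporter gene Slc1a2 at 3373 and 3327 CPM in KO and 3363 and 3369 CPM in WT. Markers of regions other than hippocampus were present too. Cbln3, a gene of cerebellar granule cells, had 20.01 and 19.7 CPM in KO and 45.9 and 47.3 CPM in WT, and Gh, the growth hormone gene of the pituitary, had 16.7 and 16.6 CPM in KO and 35.1 and 34.6 CPM in WT. Such markers put the stated source of sorted hippocampal cells in doubt, and the levels that follow are described as those of the KO and WT libraries. In bulk RNA, a change in the number of cells of a type and a change in RNA per cell cannot be told apart, and this holds for every value that follows.

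Of the 34 genes, 15 were higher and 2 lower in KO than in WT (edgeR quasi-likelihood test, adjusted by Benjamini-Hochberg over all 21592 genes at a threshold of 0.05, 2 libraries of each genotype). Over all genes tested 3.35% were called higher and 3.19% lower. All but 1 of the 34 had a mean of at least 10 CPM, and among all genes at that level 6.67% were called higher and 5.53% lower. In 23 of the 34 both KO libraries lay above both WT libraries, and in 5 both lay below, where over all genes tested the shares were 22.8% and 22.9%, and among those of at least 10 CPM 27.7% and 26.3%. The differences were small. The called rises ran from 1.04-fold to 1.25-fold, and 14 of the 15 were at most 1.15-fold. When the test was set to ask for more than a 1.1-fold change, 1 member remained called, Enpp6 (edgeR glmTreat adjusted p = 0.027), and 0.245% of all genes were called higher and 0.658% lower.

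**Figure D1:**
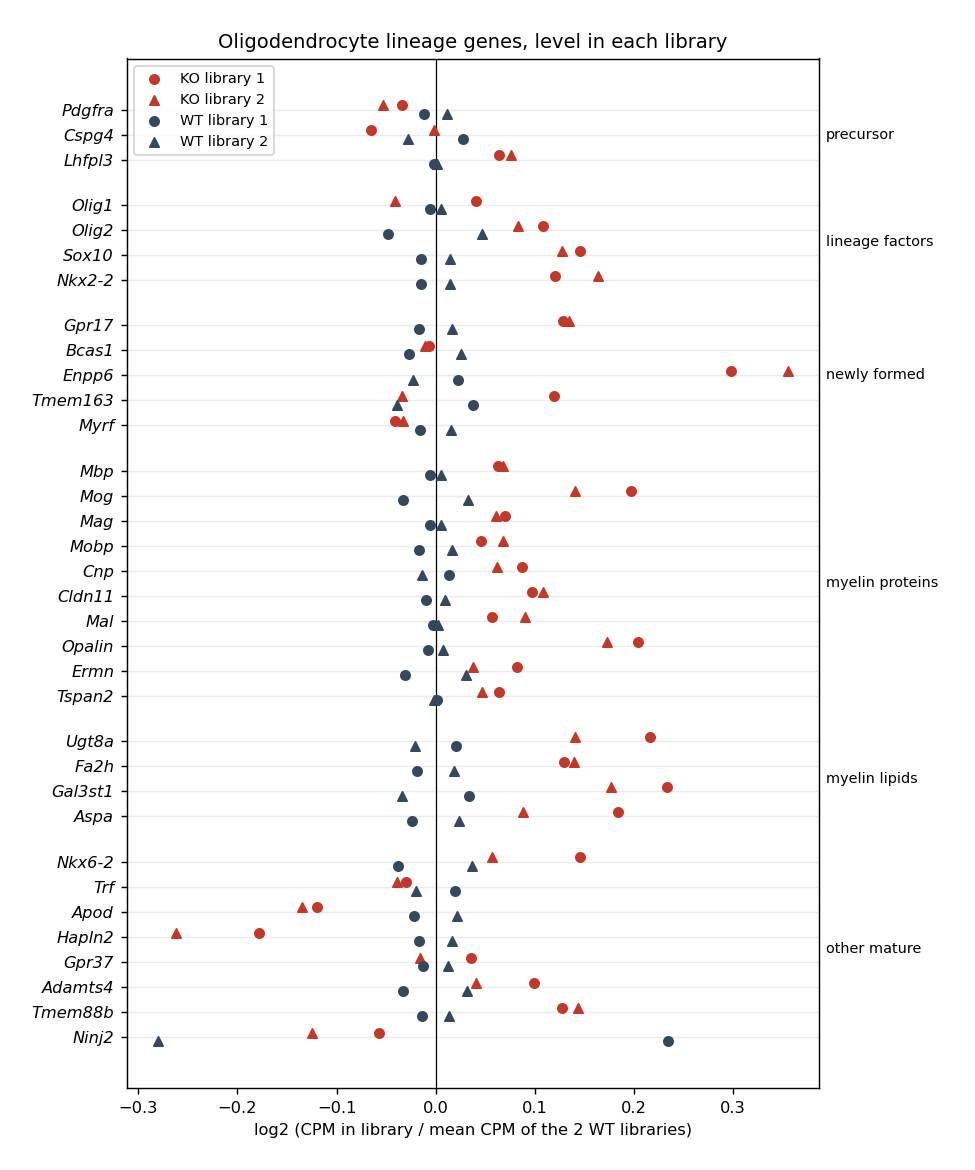
Level of each of the 34 lineage genes in each library, as the log2 ratio of its CPM to the mean CPM of the 2 WT libraries; red symbols are KO libraries, dark symbols WT libraries, circles library 1 and triangles library 2. In all 10 myelin protein genes and all 4 myelin lipid genes the KO symbols lie to the right of the WT symbols, while Apod and Hapln2 lie to the left.

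Calls were also counted by stage. None of the 3 precursor genes was called by edgeR, and likewise 0 by DESeq2, 0 by limma-trend and 0 at an unadjusted p under 0.05. Of the 4 transcription factors of the lineage 1 rose, of the 5 newly formed genes 2 rose, and of the 22 myelinating genes 12 rose and 2 fell. The shares among all genes of at least 10 CPM were 6.67% higher and 5.53% lower. The median log2 fold change was -0.034 for precursor genes, 0.12 for the lineage factors, 0.047 for newly formed genes and 0.072 for myelinating genes, against -0.00038 over all genes tested. The newly formed median was -0.011 without KO library 1 and 0.12 without KO library 2, so its sign rests on single libraries. The precursor median was -0.0012 without KO library 1 and -0.0055 without WT library 1. The difference between stages itself was not tested, since the stages hold few genes that were chosen with earlier results known.

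Precursor genes came first in the order of maturation. Pdgfra, the receptor for platelet-derived growth factor that keeps precursors dividing, had 58.9 and 58.2 CPM in KO, against 59.9 and 60.8 CPM in WT. The KO libraries lay just below the WT libraries, with a log2 fold change of -0.044 (95% interval -0.11 to 0.022, edgeR adjusted p = 0.551). Cspg4, the NG2 proteoglycan gene that pericytes also transcribe, had 30.4 and 31.8 CPM in KO and 32.4 and 31.2 CPM in WT, and the genotypes overlapped. Lhfpl3, a gene for a membrane protein used as a precursor marker, had 27.3 and 27.5 CPM in KO and 26.1 and 26.1 CPM in WT. Its log2 fold change of 0.070 was not called, and its interval of -0.028 to 0.17 takes in 0 as well as rises of the size seen in Mbp, Mobp and Mag, described below. The interval of Cspg4, -0.13 to 0.060, takes in the Mobp rise of 0.057. A rise in precursor genes of the size seen in Enpp6, the largest of the 34, lies outside the intervals of all 3 genes. Smaller rises lie inside those of Lhfpl3 and Cspg4.

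The lineage transcription factors were uneven. Sox10, which binds the regulatory regions of many myelin genes and is needed for terminal differentiation, had 76.8 and 75.9 CPM in KO, against 68.7 and 70.2 CPM in WT. It rose by 1.1-fold, with a log2 fold change of 0.14 (edgeR adjusted p = 0.00341, SE 0.029). Olig1, a basic helix-loop-helix factor of the same lineage, had 173.5 and 164.1 CPM in KO and 168.1 and 169.4 CPM in WT, so the KO pair enclosed the WT pair (log2 fold change 0.0013, 95% interval -0.047 to 0.049). Olig2, its neighbour in the family and the factor that specifies the lineage, had 50.98 and 50.1 CPM in KO and 45.7 and 48.8 CPM in WT, without overlap, but did not pass over all genes (log2 fold change 0.096, SE 0.038, edgeR adjusted p = 0.156). Nkx2-2, a homeodomain factor of differentiating precursors, had 11.2 and 11.5 CPM in KO and 10.2 and 10.4 CPM in WT. Its fold change was as large as that of Sox10, but with 816 to 915 reads per library its SE was 0.074 and it was not called (edgeR adjusted p = 0.335).

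Newly formed oligodendrocyte genes split. Enpp6, a choline-specific phosphodiesterase and a marker of cells that have just begun to differentiate, had 22.8 and 23.8 CPM in KO, against 18.9 and 18.3 CPM in WT. It had the largest fold change of the 34 genes, 1.25-fold, with a log2 fold change of 0.33 (SE 0.055, 95% interval 0.21 to 0.44, edgeR adjusted p = 0.000264). Gpr17, a G protein-coupled receptor that is switched on in committed precursors and holds back their maturation, had 146.2 and 146.9 CPM in KO and 132.2 and 135.3 CPM in WT. It rose by 0.13 on the log2 scale (edgeR adjusted p = 0.000256, SE 0.022). The other 3 genes of the stage were not called. Bcas1, an early myelin-associated gene, had 243.03 and 242.2 CPM in KO, inside the WT range of 239.7 to 248.6 CPM, and its interval of -0.048 to 0.031 on the log2 scale excludes the fold changes of Gpr17 and Enpp6. Myrf, the membrane-bound transcription factor needed to start and keep up myelin gene expression, had 100.6 and 101.2 CPM in KO and 102.4 and 104.6 CPM in WT, with a log2 fold change of -0.037 (95% interval -0.089 to 0.015). Tmem163, a zinc transporter gene, ran from 29.7 to 33.03 CPM in KO and from 29.6 to 31.2 CPM in WT, with overlap.

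Most genes for the proteins of the myelin sheath rose in KO. Both KO libraries lay above both WT libraries in all 10 genes, 8 of the 10 rose, and the median log2 fold change was 0.070. Among all genes of at least 10 CPM, 27.7% lay above in this way and 6.67% were called higher. Mbp had 5054 and 5072 CPM in KO, against 4821 and 4858 CPM in WT, a log2 fold change of 0.065 (edgeR adjusted p = 5.57e-05, SE 0.0096). Reads of the Mbp gene also include its longer Golli transcripts, which neurons make. Mobp, a second basic protein of compact myelin, had 1718 and 1745 CPM in KO and 1645 and 1684 CPM in WT, with a log2 fold change of 0.057 (edgeR adjusted p = 0.00584, SE 0.013). Counted as read pairs by halving the counts, neither Mbp nor Mobp was called (edgeR adjusted p = 0.300 and 0.249), with log2 fold changes of 0.065 and 0.057. On the full counts, limma-trend called both (adjusted p = 1.16e-07 and 0.000895).

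Further sheath proteins rose by similar or larger steps. Mog, a glycoprotein of the outermost myelin surface that appears late, had 91.2 and 87.7 CPM in KO, against 77.8 and 81.4 CPM in WT, and rose by 0.17 on the log2 scale (edgeR adjusted p = 0.000416, SE 0.030). Cldn11, the claudin of the tight junctions between myelin layers, had 296.3 and 298.5 CPM in KO and 275.03 and 278.9 CPM in WT, and rose by 0.10 (edgeR adjusted p = 0.000213, SE 0.017). Opalin, a sialylated membrane glycoprotein of mature oligodendrocytes, had 27.8 and 27.2 CPM in KO and 23.99 and 24.3 CPM in WT, a log2 fold change of 0.19 (edgeR adjusted p = 0.0165). The remaining rises were in Cnp, a phosphodiesterase of the cytoplasmic channels of myelin (519.7 and 510.7 CPM in KO, 493.95 and 484.4 CPM in WT), Mal, a proteolipid of membrane sorting (431.5 and 441.6 CPM in KO, 414.1 and 415.5 CPM in WT), and Mag, the adhesion molecule that faces the axon (325.8 and 323.8 CPM in KO, 309.2 and 311.6 CPM in WT). Their log2 fold changes were 0.075, 0.074 and 0.066. Ermn, a cytoskeletal protein gene of the mature cell, and the tetraspanin gene Tspan2 were not called, with log2 fold changes of 0.061 and 0.055 (edgeR adjusted p = 0.316 and 0.0766). The call of Opalin was lost without KO library 1 (edgeR adjusted p = 0.099), WT library 1 (0.101) or WT library 2 (0.0596), and that of Mag without WT library 1 (0.0811).

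**Figure D2:**
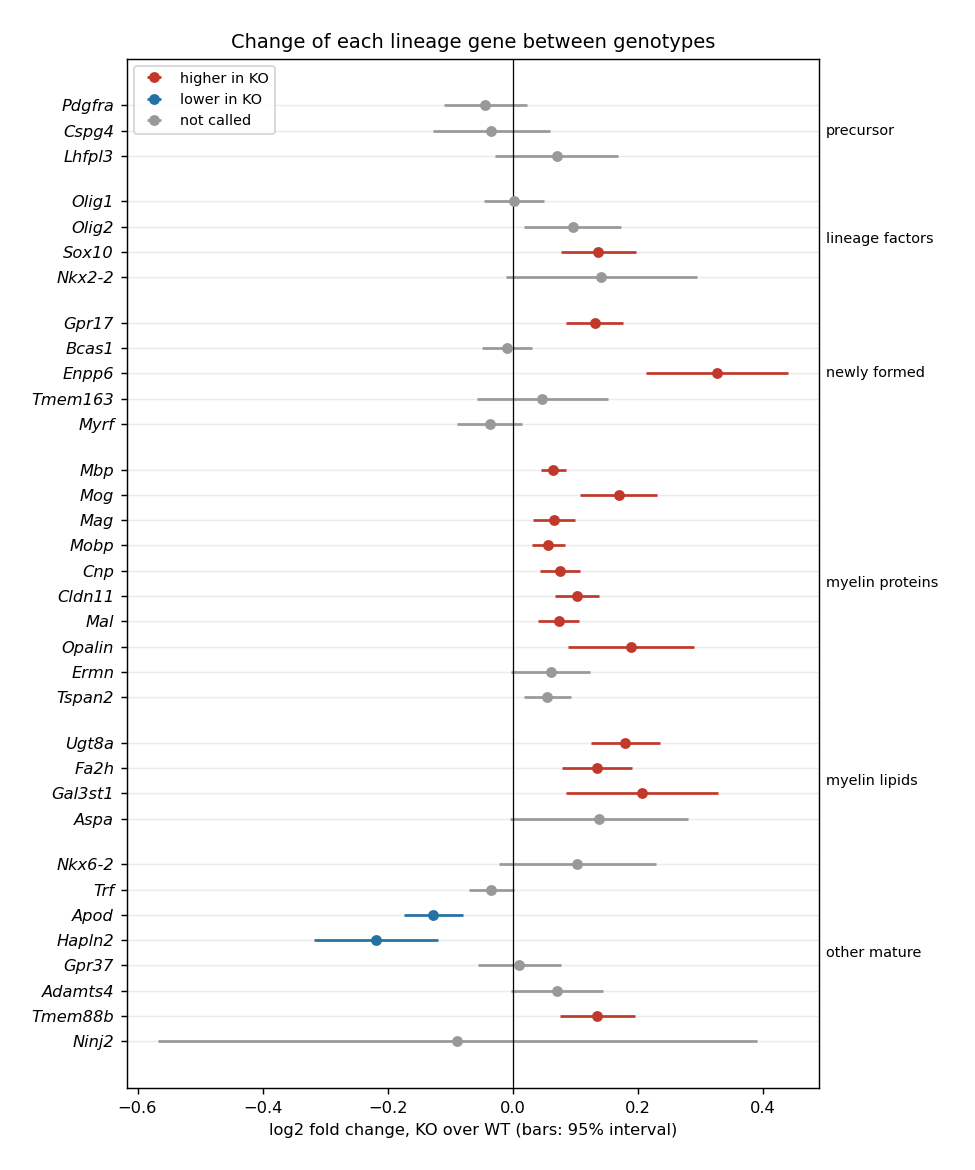
Log2 fold change of KO over WT for each of the 34 genes, grouped by stage; points are estimates of the edgeR fit, bars their 95% intervals without adjustment for the number of genes, and colour shows whether the gene was called over all genes tested. Enpp6 stands farthest to the right at 0.33 and Hapln2 farthest to the left at -0.22.

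Most genes for the lipids of myelin rose as well. Both KO libraries lay above both WT libraries in all 4 genes, 3 of the 4 rose, and the median log2 fold change was 0.16. The shares among all genes of at least 10 CPM were 27.7% above and 6.67% called higher. Ugt8a, the enzyme that makes galactosylceramide, had 124.6 and 118.3 CPM in KO, against 108.8 and 105.7 CPM in WT, a log2 fold change of 0.18 (edgeR adjusted p = 5.73e-05, SE 0.027). Fa2h, which adds the hydroxyl group to the fatty acids of myelin lipids, had 90.01 and 90.7 CPM in KO and 81.2 and 83.4 CPM in WT, and rose by 0.13 (edgeR adjusted p = 0.00201, SE 0.027). Gal3st1 acts after Ugt8a and turns galactosylceramide into sulfatide. It had 20.1 and 19.3 CPM in KO and 17.5 and 16.7 CPM in WT, a log2 fold change of 0.21 (edgeR adjusted p = 0.0326, SE 0.059). This call was lost with DESeq2 (adjusted p = 0.0892), without KO library 1 (edgeR adjusted p = 0.191) and without WT library 2 (0.241). Aspa, which splits N-acetylaspartate and so releases acetate for lipid synthesis, had 14.2 and 13.3 CPM in KO and 12.3 and 12.7 CPM in WT and was not called (log2 fold change 0.14, SE 0.069, edgeR adjusted p = 0.310).

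The other 8 genes of mature cells held both falls of the lineage. Both KO libraries lay above both WT libraries in 3 of the 8 and below them in 3, and 2 overlapped. Among all genes of at least 10 CPM the shares were 27.7% above and 26.3% below, so this split is not unusual. The median log2 fold change of this group was -0.012. Hapln2, the link protein of the matrix at nodes of Ranvier, had 26.7 and 25.2 CPM in KO, against 29.9 and 30.6 CPM in WT. It fell by 0.22 on the log2 scale (edgeR adjusted p = 0.00462, SE 0.048), a call that ended without KO library 2 (edgeR adjusted p = 0.0504, log2 fold change -0.18). Apod, the lipid carrier apolipoprotein D, which cells of the meninges and vessels also transcribe, had 135.3 and 133.9 CPM in KO and 144.7 and 149.2 CPM in WT, and fell by 0.13 (edgeR adjusted p = 0.000506, SE 0.023). Tmem88b, a membrane protein gene used as a marker of mature oligodendrocytes, had 78.1 and 78.98 CPM in KO and 70.8 and 72.2 CPM in WT and rose by 0.14 (edgeR adjusted p = 0.00322, SE 0.029). Trf, the iron carrier transferrin, which choroid plexus also makes, had 301.7 and 299.96 CPM in KO and 312.3 and 303.8 CPM in WT and was not called (log2 fold change -0.034, 95% interval -0.070 to 0.0017). The homeodomain factor gene Nkx6-2, the metalloproteinase gene Adamts4 and the receptor gene Gpr37 had log2 fold changes of 0.10, 0.071 and 0.011, and none was called. Ninj2, an adhesion molecule gene, had 76 to 92 reads in the KO libraries and 79 to 111 in the WT libraries, and its interval of -0.57 to 0.39 is too wide to show a change of the size seen in the other genes.

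The regions upstream of the called genes with the largest changes are shown to give the promoter context of the genes that moved together and of the pair that moved the other way. They are the 250 bases before the annotated start of Enpp6, Opalin and Ugt8a, the largest rises with a single start in the table, and of Hapln2 and Apod, the falls. The sequences are those of RefSeq in build GRCm38.p6, which is not the GRCm39 build of the counts, and 25 of the 34 genes had an entry. Each is written 5′ to 3′ on the strand of its gene. Capitals mark matches, on either strand, to ACAAAG (a core of SOX factor motifs), CAGNTG (an E-box), CTGGNAC (a loose form of the motif of Myrf) and TATAAA. N stands for any base, so the E-box matches are not specific to Olig2 and the CTGGNAC matches are not specific to Myrf. The first lies at chr8:46986637-46986886 on the plus strand, and the others, all on the minus strand, at chr19:41077114-41077363, chr3:125938653-125938902, chr3:88027512-88027761 and chr16:31314809-31315058.
Enpp6: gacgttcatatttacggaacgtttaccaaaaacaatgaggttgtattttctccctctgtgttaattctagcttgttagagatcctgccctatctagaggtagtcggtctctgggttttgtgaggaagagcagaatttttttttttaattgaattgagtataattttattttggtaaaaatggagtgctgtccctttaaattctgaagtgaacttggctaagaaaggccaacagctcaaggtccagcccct
Opalin: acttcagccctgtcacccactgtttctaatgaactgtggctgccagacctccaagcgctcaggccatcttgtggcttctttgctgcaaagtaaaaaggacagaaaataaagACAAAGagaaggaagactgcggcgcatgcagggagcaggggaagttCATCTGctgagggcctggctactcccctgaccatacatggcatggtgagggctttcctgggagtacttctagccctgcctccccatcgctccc
Ugt8a: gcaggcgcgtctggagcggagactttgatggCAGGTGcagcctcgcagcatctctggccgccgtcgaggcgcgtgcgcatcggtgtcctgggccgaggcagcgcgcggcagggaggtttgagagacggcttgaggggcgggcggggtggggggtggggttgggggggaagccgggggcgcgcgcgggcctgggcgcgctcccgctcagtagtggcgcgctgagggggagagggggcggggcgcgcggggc
Hapln2: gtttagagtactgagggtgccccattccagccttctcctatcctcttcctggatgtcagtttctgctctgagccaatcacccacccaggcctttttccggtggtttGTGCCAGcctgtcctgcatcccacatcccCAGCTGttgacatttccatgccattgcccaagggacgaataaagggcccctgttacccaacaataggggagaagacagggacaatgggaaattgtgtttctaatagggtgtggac
Apod: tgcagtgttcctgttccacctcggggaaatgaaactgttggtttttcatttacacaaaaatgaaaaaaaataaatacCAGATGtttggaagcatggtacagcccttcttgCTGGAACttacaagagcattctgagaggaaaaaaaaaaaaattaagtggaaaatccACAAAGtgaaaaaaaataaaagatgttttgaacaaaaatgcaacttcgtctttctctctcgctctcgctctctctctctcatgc

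In these windows Opalin held the SOX core and an E-box, and Ugt8a an E-box. Hapln2 held an E-box and CTGGNAC, and Apod matched all 3 of these patterns, the last as CTGGAAC. The letters of none of the 4 motifs were in the Enpp6 window. Among the 25 genes with an entry, the SOX core was found before 4 of 11 that rose, 1 of 2 that fell and 1 of 12 not called, and in 16.5% of all 32851 promoter windows in the table. The E-box was found before 6 of 11, 2 of 2 and 9 of 12, against 44.8% of all windows. CTGGNAC was found before 3 of 11, 2 of 2 and 0 of 12, against 16.1% of all windows. TATAAA was found before 0 of 11, 0 of 2 and 2 of 12, against 12.4%. A gene with several starts had several windows and counted once if any of them matched. The shares of all windows count each window singly, so the counts of genes are not directly comparable with them. Such matches describe the letters of these windows and do not show binding.

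Stages were also set against each other within each library, on CPM per kilobase of annotated exon to take out gene length. The sums still follow their most abundant genes, such as Mbp among myelinating genes and Lhfpl3 among precursor genes. The summed level of the 3 precursor genes was 16.9 and 17.02 in KO, against 16.8 and 16.8 in WT. This sum was 0.978% higher in KO on average, although the median log2 fold change of the precursor genes was -0.034. The summed level of the 22 myelinating genes was 1795.4 and 1795.2 in KO and 1711.5 and 1725.3 in WT. The ratio of myelinating to precursor genes was 106.2 and 105.4 in KO and 101.9 and 102.6 in WT. It was 3.46% higher in KO on average, without overlap between genotypes. A lack of overlap is common with so few libraries. Among single genes of at least 10 CPM, KO lay above in 27.7% and below in 26.3%. The difference in the ratio was not tested. Leaving Mbp out gave ratios of 70.9 and 70.3 in KO and 67.99 and 68.5 in WT. The groups of myelinating genes differed. Sheath protein genes summed to 1515.3 and 1519.7 in KO and 1435.6 and 1449.1 in WT. Lipid genes summed to 69.6 and 67.9 in KO and 61.6 and 61.3 in WT. The other mature genes went the other way, at 210.4 and 207.5 in KO and 214.3 and 214.8 in WT. The ratio of newly formed to precursor genes was 6.83 and 6.75 in KO and 6.61 and 6.77 in WT, and here the genotypes overlapped. Lineage factors over precursor genes likewise overlapped, at 7.66 and 7.32 in KO and 7.25 and 7.39 in WT.

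**Figure D3:**
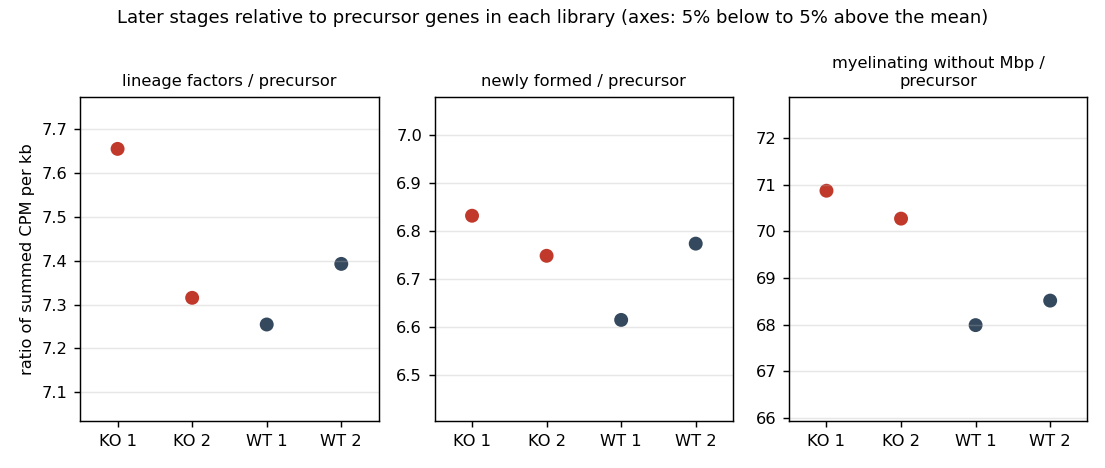
Ratio of the summed level (CPM per kilobase of exon) of lineage factors, newly formed genes and myelinating genes without Mbp to that of the precursor genes, in each library; each axis spans from 5% below to 5% above the mean of the 4 libraries. The 2 KO points lie above the 2 WT points for myelinating genes, at 70.3 to 70.9 against 67.99 to 68.5, and overlap with them in the other panels. The ratios were not tested.

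On the same scale the order of levels was led by the sheath proteins. Mbp stood at 598 CPM per kilobase in KO and 571 in WT, and Mobp at 253 in KO and 243 in WT. Cldn11 followed at 159 in KO and 148 in WT, Mal at 157 in KO and 149 in WT, and Cnp at 142 in KO and 134 in WT. Cldn11 stood above Mal in KO and below it in WT, so their order is not fixed. Below them came Trf at 90.6 in KO and 92.8 in WT, Mag at 79.8 in KO and 76.2 in WT, and Olig1 at 78.1 in KO and 78.04 in WT. At the low end were Ninj2 at 1.17 in KO and 1.25 in WT, Aspa at 2.31 in KO and 2.1 in WT, and Cspg4 at 2.61 in KO and 2.67 in WT. Exon lengths are those of all annotated transcripts together, so the level of a gene with long rare transcripts is understated. Among the called rises, the most abundant genes by CPM, Mbp, Mobp, Cnp, Mal and Mag, rose by 0.057 to 0.075 on the log2 scale with SE of 0.0096 to 0.016, while Opalin and Gal3st1, below 30 CPM, could be called only at larger changes since their SE were 0.049 and 0.059.

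Of the 34 genes 14 share exon sequence with another annotated gene, most with one on the opposite strand, and whether reads were counted by strand is not stated in these sources. Gpr17 overlaps Lims2, which had 17.99 and 17.1 CPM in KO and 15.8 and 17.8 CPM in WT, and Cnp overlaps Dnajc7, which had 158.3 and 163.8 CPM in KO and 159.9 and 159.5 CPM in WT. Neither neighbour was called (edgeR adjusted p = 0.692 and 0.864). Nkx6-2 overlaps Inpp5a, which fell by 0.15 on the log2 scale (edgeR adjusted p = 0.000864).

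Other genes of the lineage, outside the 34, gave smaller counts. For comparison, 6.67% of all genes of at least 10 CPM were called higher and 5.53% lower. Among 26 further genes of mature oligodendrocytes 5 rose and 3 fell, with a median log2 fold change of 0.044. The rises included Tppp, a tubulin-binding protein of oligodendrocyte processes (579.7 CPM in KO, 544 CPM in WT, log2 fold change 0.091), Gsn, the actin-severing protein gelsolin (166 CPM in KO, 153 CPM in WT, 0.12), and Sirt2, a deacetylase of myelin (226 CPM in KO, 215 CPM in WT, 0.069). The falls were Enpp2, a lysophospholipase that choroid plexus also makes (log2 fold change -0.27), Il33, a cytokine stored in oligodendrocyte and astrocyte nuclei (-0.21), and Anln, an actin-binding scaffold protein of myelin (-0.19). Of 9 further enzymes and carriers of myelin lipids, among them the ceramide synthase gene Cers2 and the galactosylceramidase gene Galc, none was called by edgeR, DESeq2 or limma-trend, 2 had an unadjusted p under 0.05 in edgeR, and the median log2 fold change was -0.010.

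Of 13 further precursor genes 2 rose and 2 fell, with a median of 0.010. Beside the shares of 6.67% and 5.53% among all genes of at least 10 CPM, lists this short with 0 or 1 called do not stand out. Pcdh15, a cadherin of precursors, had 32.5 and 32.6 CPM in KO, against 28.3 and 28.6 CPM in WT (log2 fold change 0.19), and Cacng4, an AMPA receptor auxiliary subunit, had 80.3 and 78.3 CPM in KO, against 70.4 and 71.3 CPM in WT (0.16). Megf11 fell by 0.22 and Luzp2 by 0.084 on the log2 scale. Among 12 further newly formed genes 1 rose, Tcf7l2, a Wnt pathway factor of differentiating oligodendrocytes that thalamic neurons also express, with a log2 fold change of 0.16 (edgeR adjusted p = 0.00735), and 0 fell. Among 12 regulators of the lineage Tcf7l2 and Lingo1 rose, and Chd7, Id4 and Zeb2 fell. Lingo1, an inhibitor of differentiation that neurons also make, had 454.6 and 456.7 CPM in KO and 397.2 and 391.5 CPM in WT. Chd7, a chromatin remodeller that works with Sox10 in oligodendrocytes and is also high in cerebellar granule cells, had 35.8 and 33.7 CPM in KO and 43.8 and 45.4 CPM in WT, a log2 fold change of -0.36. Of 14 ligands, receptors and axonal partners of the lineage 1 fell, the insulin-like growth factor receptor gene Igf1r, and 0 rose. The receptor gene Erbb3, with a log2 fold change of 0.16, did not pass (edgeR adjusted p = 0.0545).

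Markers of other cells and of brain regions also differed between the genotypes, where 3.35% of all genes tested were called higher and 3.19% lower. All 9 cerebellar markers fell, with a median log2 fold change of -0.88 and summed levels of 287 and 289 CPM in KO, against 466 and 474 CPM in WT. Of 8 choroid plexus markers 6 fell, with a median of -0.44 and sums of 453 and 445 CPM in KO and 649 and 646 CPM in WT. Of 8 dentate granule cell markers 6 fell, with a median of -0.45 and sums of 396 and 390 CPM in KO and 440 and 439 CPM in WT. All 8 striatal markers rose, with a median of 0.31 and sums of 839 and 842 CPM in KO and 692 and 695 CPM in WT, and 6 of 8 neocortical markers rose, with a median of 0.18 and sums of 652 and 648 CPM in KO and 587 and 588 CPM in WT. Of 8 general neuronal markers 2 rose, with sums of 6957 and 6970 CPM in KO and 6808 and 6798 CPM in WT, and of 5 pituitary markers tested 3 fell. None of these tested markers was at 0 in any library, and the part of these shifts in the lineage results was not tested.

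By list median, glial and vascular markers moved less than the regional markers, although single genes moved more. The shares called among all genes of at least 10 CPM were 6.67% higher and 5.53% lower. Of 10 astrocyte markers 4 fell and 0 rose, with a median of -0.047 and sums of 5023 and 5008 CPM in KO and 5119 and 5111 CPM in WT. None of 10 microglial markers was called by edgeR, DESeq2 or limma-trend, although 1 had an unadjusted p under 0.05 in edgeR, with sums of 325 and 320 CPM in KO and 318 and 319 CPM in WT. Of 8 endothelial markers 1 rose and 1 fell, with log2 fold changes of 0.18 and -0.34. Their sums were 343 and 336 CPM in KO and 371 and 367 CPM in WT. None of 8 mural cell markers and none of 8 meningeal fibroblast markers, the cells that share Cspg4 or Apod with the lineage, was called by edgeR, DESeq2 or limma-trend either, although 1 and 2 of them had an unadjusted p under 0.05 in edgeR. Their sums were 232 and 243 CPM in KO and 237 and 236 CPM in WT for mural cells, and 590 and 585 CPM in KO and 580 and 574 CPM in WT for fibroblasts. Schwann cells make several of the same myelin genes in peripheral nerve, and among their markers Pmp2, a lipid-binding protein of peripheral myelin, had 0 reads in all 4 libraries. Of the 8 markers of that list 1 rose, Egr2, which active neurons also transcribe, and the sums were 26.03 and 26.6 CPM in KO and 24.97 and 25.7 CPM in WT. In a further refit, the cerebellar, choroid plexus, dentate, pituitary and mitochondrial genes were left out of the fit and its scaling. The lineage counts were then 15 higher and 2 lower, where 3.47% and 3.12% of all genes were called. This refit still tested 21538 genes, against 21592 in the main fit, and kept the striatal and neocortical markers. Leaving out marker rows does not remove the other RNA of the same cells, so the part of regional shifts was not tested.

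**Figure D4:**
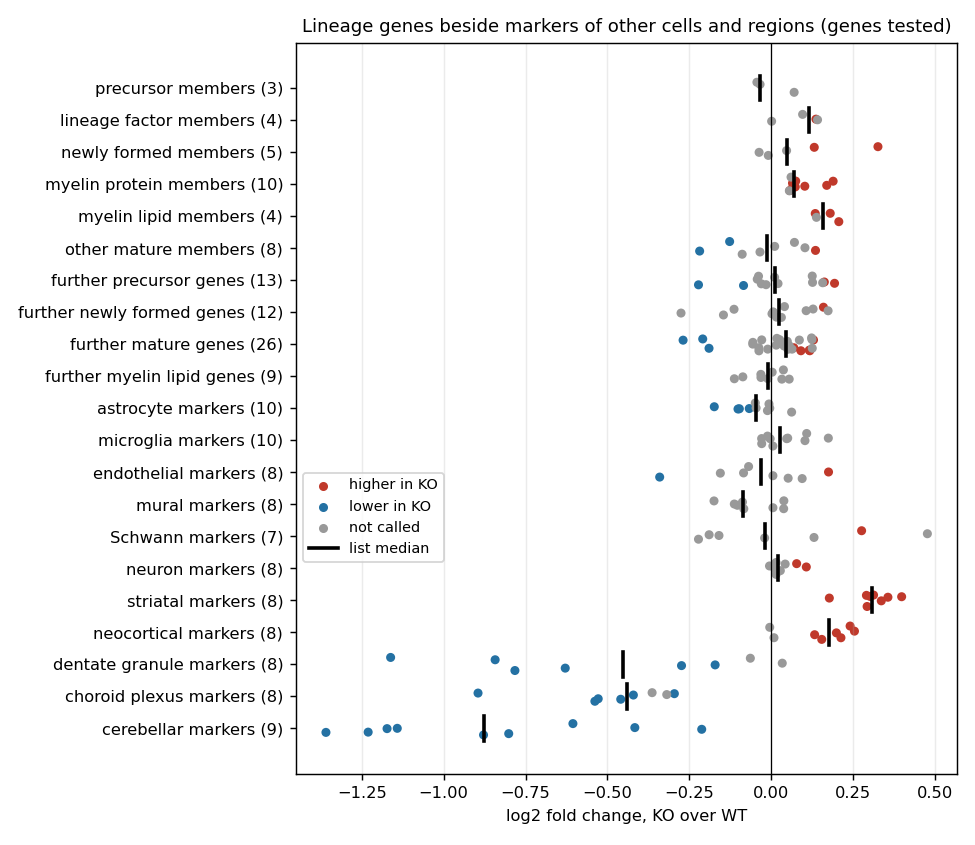
Log2 fold change of KO over WT for the tested genes of each list, with the number of genes in brackets; points are genes coloured by call and black bars are list medians. Medians of the lineage lists lie between -0.034 and 0.16, while those of striatal markers (0.31) and cerebellar markers (-0.88) lie farther out.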

How the data were processed

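The authors deposited a table of raw counts, 1 row per Ensembl gene and 1 column for each of the 4 libraries. Per the labels' protocols, poly(A) RNA was captured from total RNA and made into strand-specific paired libraries. Build GRCm39 and the tools STAR 2.6.1c, FastQC, DESeq2 and featureCounts are listed in the submitters' processing notes, without roles. Both mates of a pair appear to be counted, since 72.8% to 74.3% of the counts between 1 and 20 were even, so reads overstate fragments. Symbols matched 52081 of 55414 identifiers. Exon lengths came from GENCODE M21 (GRCm38).

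With edgeR 4.0.16 (R 4.3.3), genes passing filterByExpr at a minimum count of 10 were scaled with TMM (factors 0.9966 to 1.005) and tested with glmQLFit and glmQLFTest by genotype, and the procedure was tested on simulated data. The standard error is the log2 fold change over the square root of F. Alternatives used DESeq2 1.42.0, limma 3.58.1 (limma-trend), other scalings and filters, a dispersion of 0, halved counts, each library left out and a replicate block. The 34 members and all lists were chosen with earlier results of these data known. Called members are described in full, and up to 3 called genes per direction with the smallest p are named from each pathway list. Some genes that these rules take are not reported here.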

Additional observations from a re-analysis of the deposited data

How the results depend on the processing

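All 17 called members kept the sign of their fold change in all 15 refits. Of the 17, 11 stayed called in every refit except the 1.1-fold minimum. The counts of members called higher and lower were within 1.5 times 15 and 2 with other scalings, filters and tools. So were those with a library left out. The exceptions were the 1.1-fold minimum and the count of members called lower without KO library 2. The 1.1-fold minimum gave 1 and 0 members, and 53 and 142 genes over the whole table. A left-out library leaves a lone one that is assumed to vary like the other genotype. With each library left out in turn, the median log2 fold change ran from -0.033 to -0.0012 for precursor genes and 0.086 to 0.15 for lineage factors. It ran from -0.011 to 0.12 for newly formed genes and 0.065 to 0.086 for myelinating genes. The newly formed median was 0.089 with Myrf counted as myelinating. The cause of these shifts was not tested, except that the 1.1-fold minimum asks for more by its construction. With the replicate block, 15 and 2 members and 818 and 772 genes were called. Library numbers are shared by the genotypes, but same-numbered libraries did not deviate together (Pearson r = 0.0157 across 21592 genes, which are not independent replicates), and the labels do not say that a number pairs animals. Depth limits Ninj2, at 76 to 111 reads.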
